A study of Mus musculus with 59 samples.

Results

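These libraries are 24 of 59 from male mice, made from the ventral tegmental area, the midbrain region whose dopamine neurons project to the striatum and cortex. They were selected on a measured value: of the 35 libraries from mice that received injections, the 12 with the highest and the 12 with the lowest FPKM of Sgk1, the serum- and glucocorticoid-regulated kinase 1. FPKM is a fragment count scaled to transcript length and library total. The 6 groups ranked are acute cocaine (5 libraries) and acute saline (6), both injected in the home cage, chronic cocaine (6) and chronic saline (6), also injected in the home cage, and conditioning with cocaine (6) and with saline (6). The remaining 24 libraries, 15 of cocaine and 9 of saline, come from intravenous self-administration and were not ranked. Doses, the number of injections, the kind of conditioning, the strain, the age and the interval before tissue collection are not in the labels, and neither is a statement that libraries come from separate animals, so all spreads and p-values describe these samples and may be technical.

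Corticosterone, the main stress hormone of the mouse, enters cells and binds the glucocorticoid receptor (Nr3c1), which moves to the nucleus and binds DNA near its target genes. Sgk1 is a well-known target of that receptor in the brain, along with Fkbp5, a co-chaperone that dampens the receptor, Tsc22d3 (GILZ), an anti-inflammatory mediator, and Per1, a clock gene. Sgk1 also answers to other inputs, such as growth factors and osmotic stress, and it is expressed in oligodendrocytes. Its level alone is therefore not a hormone assay. Hormone was not measured here.

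Sgk1 spanned 62.0 to 116 FPKM in the low end (median 92.2), 119 to 138 in the 11 libraries between, and 143 to 191 in the high end (median 159). The last library inside the high end, conditioning saline library 4, had 143.4 FPKM, and the first one outside it, conditioning saline library 1, had 138.3. At the other limit, acute cocaine library 1 had 115.5 FPKM and was in, while chronic cocaine library 0 had 118.7 and was out. These values chose the libraries and are given without a test.

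The groups were spread unevenly over the ends. All 6 conditioning cocaine libraries were in the high end, with 3 of the 6 conditioning saline libraries, and no conditioning library was in the low end. All 6 chronic saline libraries were in the low end. Chronic cocaine placed 2 of its 6 libraries in the high end and 1 in the low end. Acute cocaine placed 1 of 5 in the high end and 2 in the low end, and acute saline placed 0 of 6 and 3. By agent, the high end held 9 of 17 cocaine and 3 of 18 saline libraries, and the low end 3 and 9. By paradigm, the high end held 9 conditioning, 2 chronic and 1 acute library, and the low end 0, 7 and 5. The ends therefore differ in paradigm and agent as well as in Sgk1. Differences between them cannot be told apart from those of paradigm and agent. For that reason the slope of each gene on Sgk1 within the 6 injected groups is given beside the end difference. Such a slope describes variation within groups and does not separate an end difference from paradigm and agent.

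**Figure D1:**
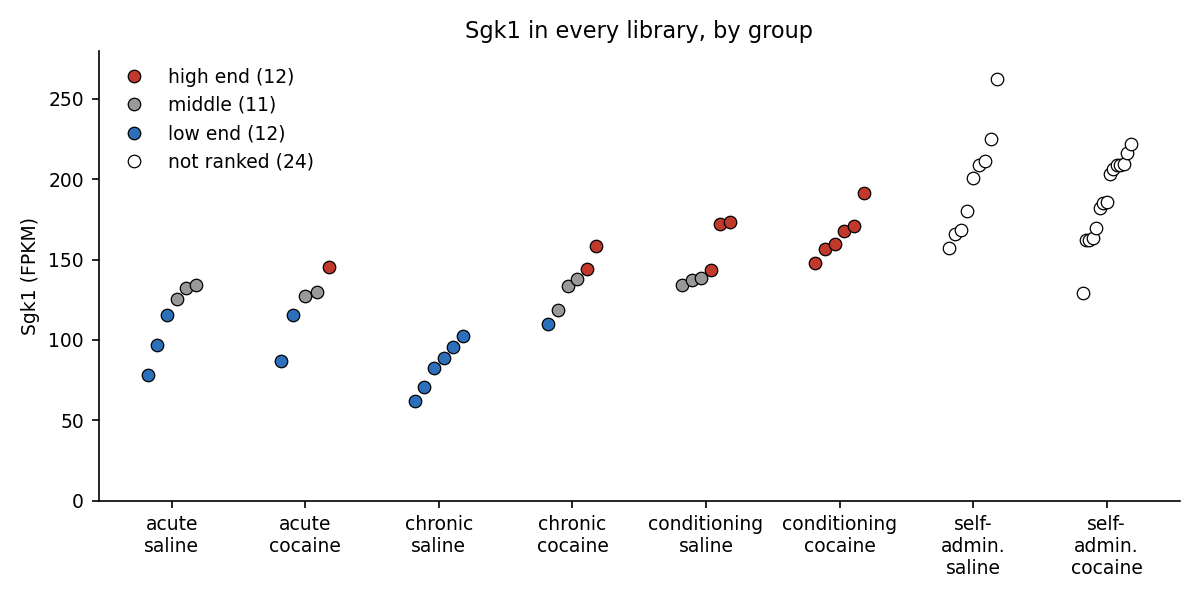
Sgk1 in FPKM (vertical axis) for each of the 59 libraries, by group (horizontal axis); every point is 1 library and its colour gives the end it was placed in. Chronic saline lies wholly in the low end, conditioning cocaine wholly in the high end, and the 24 unfilled self-administration libraries, 129 to 262 FPKM, were not ranked.

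Library quality measures differed between the ends. Sums of FPKM were 432426 to 457210 in the high end (median 444315) and 418179 to 439403 in the low end (median 435512). Symbols listed at 0 numbered 5938 to 7715 in the high end (median 6556) and 5876 to 7075 in the low end (median 6322). The dopamine neuron markers that define the tissue were present at both ends: Th, the rate-limiting enzyme of dopamine synthesis, ran from 124 to 691 FPKM in the high end and from 135 to 620 in the low end. Slc6a3, the dopamine transporter, ran from 107 to 597 and from 133 to 570. Differences in such markers between libraries of whole tissue can come from fewer cells or less RNA per cell, which cannot be told apart.

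Of 13172 genes that averaged 1 FPKM or more over the injected libraries, 40 (0.304%) were higher in the high end by at least 1.3-fold on the log2(FPKM + 1) scale and 94 (0.714%) were lower. At 1.2-fold the counts were 109 (0.828%) and 221 (1.68%). Only 1 gene, 0.00759% of those compared, had ends that did not overlap. The median gene differed by 0.0026 on the log2 scale. Since the libraries were chosen on Sgk1, these are descriptions of the chosen libraries and carry no test.

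The gene whose ends did not overlap was Arl4d, a small GTPase of the ARF-like family (chr11:101665541-101667832, plus strand, GRCm38). It ran from 25.8 to 39.8 FPKM in the high end (median 28.4) and from 13.2 to 25.4 in the low end (median 21.0), a difference of 0.50 ± 0.09 (SE, log2 scale, 12 against 12 libraries). Its lowest high-end library was conditioning cocaine library 0 and its highest low-end library acute saline library 4, so the gap between the ends was narrow. With 8 libraries per end 39 genes did not overlap, and with 17 per end none did, so the count depends on where the ends are drawn.

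Arl4d was 1 of the 10 genes with the highest Pearson r to Sgk1 over the 35 injected libraries among genes past 1.2-fold. The 10 were Nfkbia (0.92), Arl4d (0.91), Ddit4 (0.87), Arrdc2 (0.86), Errfi1 (0.86), Cdkn1a (0.82), Plekhf1 (0.81), Pdk4 (0.81), Rhou (0.70) and Wnt3 (0.67). These libraries share the groups and the normalization, and r is given as a description of likeness. Of the 10, 6 belong to a list of 30 glucocorticoid-induced genes: Nfkbia, Ddit4, Arrdc2, Errfi1, Cdkn1a and Pdk4. Among the 13172 genes compared, 29 are on that list. Its members were chosen with earlier results of these data known, so the count of 6 is a description.

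Nfkbia encodes the inhibitor that holds NF-kappa-B in the cytoplasm (chr12:55489410-55492647, minus strand). It ran from 21.3 to 27.8 FPKM in the high end, with a median of 23.7, and from 13.0 to 23.3 in the low end, with a median of 17.4. The ends overlapped through 1 low-end library, acute cocaine library 1, which is also the low-end library with the most Sgk1. The difference was 0.44 ± 0.07 on the log2 scale.

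Ddit4 (REDD1) restrains the growth kinase complex mTORC1 (chr10:59949669-59951834, minus strand). It ran from 45.9 to 68.4 FPKM in the high end (median 58.9) and from 35.9 to 53.3 in the low end (median 42.3), a difference of 0.44 ± 0.07. All 12 high-end libraries were above the low-end median, and 3 of the 12 low-end libraries were above the lowest of the high end, acute cocaine library 4.

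Arrdc2 is an arrestin-domain protein (chr8:70835129-70839720, minus strand). High-end values were 14.4 to 21.6 FPKM (median 18.4) and low-end values 9.58 to 16.2 (median 11.5), a difference of 0.55 ± 0.08. Only chronic cocaine library 2 of the low end reached into the high end.

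Cdkn1a (p21), an inhibitor of cyclin-dependent kinases, had the widest difference of the 10, 0.89 ± 0.15 on the log2 scale (chr17:29090976-29100727, plus strand). It ran from 6.46 to 19.6 FPKM in the high end (median 13.4) and from 4.66 to 10.1 in the low end (median 6.52). The overlap came from both sides, since acute cocaine library 4 and chronic cocaine library 5 of the high end lay below chronic cocaine library 2 of the low end. Those high-end libraries are 2 of the 3 that are not from conditioning.

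Errfi1 (MIG6) limits signalling of the epidermal growth factor receptor (chr4:150853919-150868892, plus strand). It ran from 16.3 to 21.0 FPKM in the high end and from 13.0 to 17.3 in the low end, a difference of 0.32 ± 0.04, and 1 low-end library was above the lowest of the high end. Pdk4, the kinase that turns off pyruvate dehydrogenase and so spares glucose (chr6:5483351-5496309, minus strand), ran from 4.82 to 7.44 FPKM against 3.23 to 5.02, a difference of 0.44 ± 0.06.

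Outside the list, Rhou, a small GTPase (chr8:123653929-123663884, plus strand), ran from 28.1 to 38.0 FPKM in the high end and from 23.3 to 28.4 in the low end, a difference of 0.29 ± 0.04. Plekhf1, a phosphoinositide-binding protein of endosomes and lysosomes, differed by 0.51 ± 0.07, with medians of 15.6 and 10.1 FPKM. Wnt3, a secreted Wnt ligand, differed by 0.27 ± 0.04 at low levels, with medians of 3.24 and 2.44 FPKM.

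**Figure D2:**
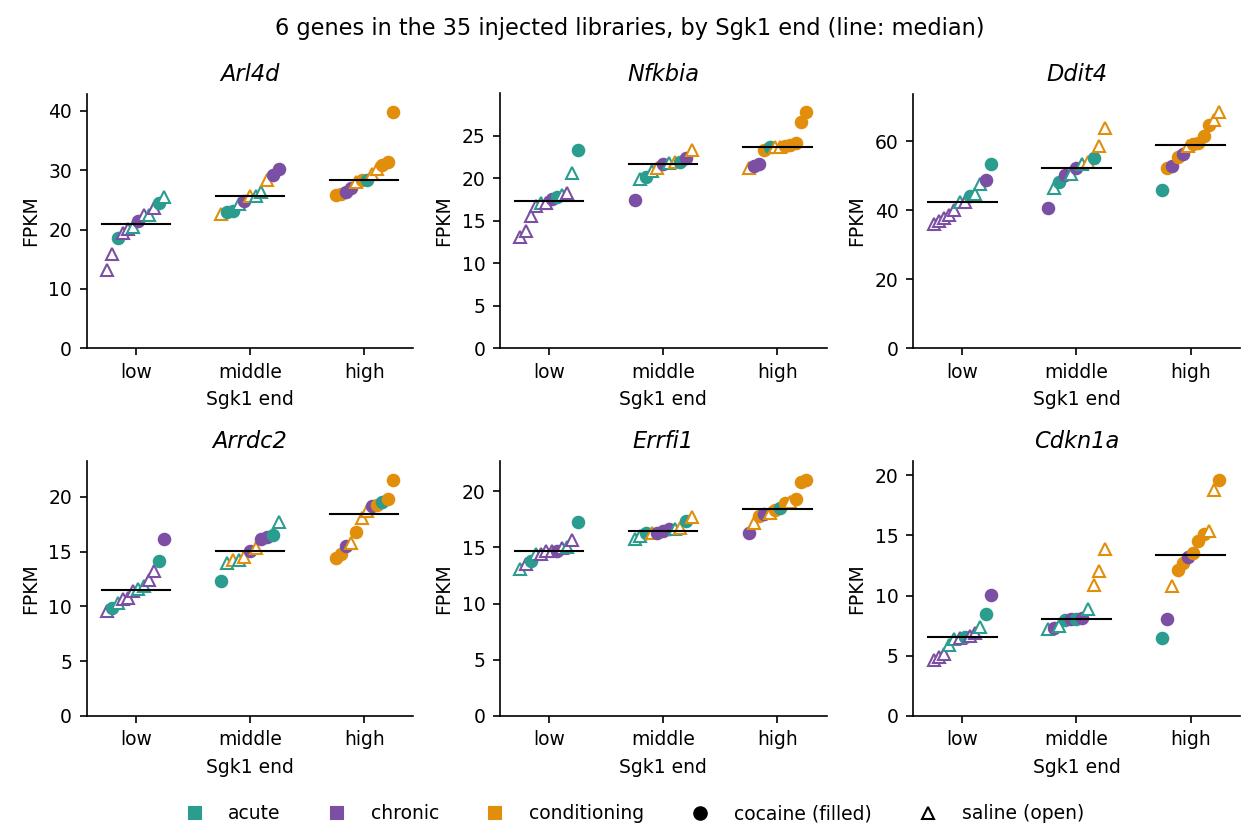
FPKM (vertical axis, from 0) of 6 genes in the low, middle and high Sgk1 libraries (horizontal axis); each point is 1 injected library, coloured by paradigm, filled for cocaine and open for saline, and the line is the median. Arl4d shows no overlap between low and high ends, the other 5 overlap, and the 3 highest values of Cdkn1a are from conditioning.

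The same 10 genes were examined within groups, where paradigm and agent are constant. Slopes are the change in log2(FPKM + 1) for each unit of log2(FPKM + 1) of Sgk1, so that a slope of 1 means change in proportion to Sgk1. Of the 10, 9 had a positive slope in each of the 6 injected groups, and Wnt3 had one in 5. Over all genes compared, 402 (3.05%) were positive in all 6 groups and 268 (2.03%) were negative in all 6. With group means removed, the slopes were 0.72 for Arl4d, 0.70 for Arrdc2, 0.48 for Nfkbia, 0.44 for Cdkn1a, 0.43 for Pdk4, 0.39 for Plekhf1, 0.33 for Ddit4, 0.32 for Errfi1, 0.25 for Rhou and 0.18 for Wnt3. The 10 were chosen for their relation to Sgk1 over the same libraries, which includes the relation within groups, so positive slopes follow in part from the choice and are given as a description.

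Another 10 genes were named in the opposite direction, by the lowest r: Pdgfb, Gas1, Hes5, Cd248, Hic1, Dbp, Zic2, Sox2, Foxq1 and Sfrp5, with r from -0.77 for Pdgfb to -0.60 for Sfrp5. Dbp, a clock output transcription factor, differed most: it ran from 22.2 to 45.1 FPKM in the high end and from 37.3 to 77.4 in the low end, a difference of -0.70 ± 0.12. Hes5, a Notch target of glial progenitors, ran from 5.32 to 14.1 against 11.4 to 22.8 FPKM, a difference of -0.61 ± 0.14. Sox2, a factor of neural stem cells and glia, ran from 10.6 to 15.9 against 14.0 to 19.1 FPKM, a difference of -0.28 ± 0.06. The ends overlapped for all 10. Chronic saline library 1, which had the lowest sum of FPKM of the injected libraries (418179), held the highest low-end value of each but Pdgfb. With any 1 library left out the difference of Dbp was -0.76 to -0.64.

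Within groups these genes divided. Gas1, a membrane protein of the hedgehog pathway, had a negative slope in all 6 groups and a slope of -0.57 with group means removed, and Hic1 and Foxq1, both transcription factors, were also negative in all 6. Dbp had a slope of 0.02 with group means removed and was positive in 3 of the 6 groups. Cd248 (slope -0.07) was positive in 3 groups as well.

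The glucocorticoid list was then taken whole. Of its 30 genes, 29 passed the filter on low values, and 26 of them were higher in the high end (6766 of all 13172 genes were, 51.4%). By at least 1.2-fold 9 were higher and 0 were lower, beside 0.828% and 1.68% of all genes. The median difference of the 29 was 0.16 on the log2 scale, beside 0.0026 over all genes. Because the list was chosen with earlier results of these data known, these counts are descriptions. The 9 were Cdkn1a, Arrdc2, Ddit4, Pdk4, Nfkbia, Sult1a1, Errfi1, Mfsd2a and Angptl4. Sult1a1, a sulfotransferase of phenols and catechols, ran from 3.56 to 7.50 FPKM in the high end and from 2.71 to 7.69 in the low end, a difference of 0.37 ± 0.12. Its highest low-end value came from chronic cocaine library 2, and in all 4 low-end libraries were above the lowest of the high end. Mfsd2a, the transporter of lysophosphatidylcholine at the blood-brain barrier, ran from 13.7 to 19.0 against 11.0 to 15.4 FPKM (0.27 ± 0.06). Angptl4, an inhibitor of lipoprotein lipase, differed by 0.27 ± 0.11 with medians of 2.01 and 1.56 FPKM.

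Several of the best-known receptor targets differed little between the ends. Fkbp5 ran from 6.52 to 11.4 FPKM in the high end and from 6.30 to 9.12 in the low end, a difference of 0.11 ± 0.07, and 10 of 12 low-end libraries were above the lowest of the high end. Per1 differed by 0.05 ± 0.06, with medians of 12.6 and 11.4 FPKM. Zbtb16, a zinc-finger repressor, differed by -0.06 ± 0.19, and Klf9, a Krüppel-like factor, by 0.10 ± 0.04. Plin4, a lipid droplet coat protein, differed by 0.21 ± 0.19. Tsc22d3 was between these and the followers: it ran from 88.4 to 120 FPKM against 73.0 to 104, a difference of 0.26 ± 0.05. The metallothioneins Mt1 and Mt2, metal-binding proteins induced by metals and by glucocorticoid, differed by 0.21 ± 0.08 and 0.26 ± 0.09, with within-group slopes of 0.04 and 0.13. Tsc22d3 and Mt2 fell just short of 1.2-fold, which is 0.263 on the log2 scale. Their r to Sgk1 over the 35 injected libraries was 0.70 and 0.64.

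A list level, the mean of log2(FPKM + 1) over the measured members in a library, ran from 3.57 to 3.97 in the high end (median 3.71) and from 3.41 to 3.87 in the low end (median 3.48). The highest of the high end was that of conditioning saline library 0, whose microglial list level, 4.24, was also above the 3.64 to 3.83 of the other 11 high-end libraries, and the part of microglial RNA in its level was not tested. Among low-end libraries the highest level was that of chronic cocaine library 2, whose Sgk1 was 110 FPKM. It also held the highest low-end values of Cdkn1a, Arrdc2, Sult1a1, Mfsd2a, Angptl4, Fkbp5, Tsc22d3, Per1, Mt1, Mt2, Zbtb16, Map3k6, Plin4, Hif3a and Mertk. For the other list members that value came from other low-end libraries, acute cocaine library 1 for Nfkbia, Ddit4, Errfi1 and Pdk4 among them. The list level of chronic cocaine library 2, 3.87, was above the high-end median of 3.71. The library with the lowest high-end level was acute cocaine library 4. The mean difference in level was 0.21. It was 0.023 with group means removed, a value limited by construction, since groups that lie wholly in 1 end then add 0 to it. The 29 members had a median within-group slope of 0.20, beside 0.013 over all genes, and 23 were positive, beside 7188 of the 13172 genes compared (54.6%).

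Promoters of the list were read for the receptor's DNA motif. RefSeq windows of 300 bases (GRCm38.p6, from 250 bases before the start to 50 after) were found for 25 of the 29 genes, 31 windows in all. The half-site AGAACA, searched on both strands, occurred in 3 of the 31, while 19.0% of all 32851 windows held it. The longer paired motif uses a shorter and looser arm, GNACA, facing its reverse complement with 3 bases between (GNACANNNTGTNC, which reads alike on both strands). It occurred in 3 of the 31, those of Map3k6, Mt1 and Txnip, and in 0.475% of all windows. None of these 3 windows held the half-site AGAACA. Of the 9 genes past 1.2-fold, 8 had a window, and Sult1a1 was the one among them with a half-site. A match is a description of letters, and the absence of one says nothing of sites further away. The 3 genes are shown because their windows, of the 31 searched, hold the half-site AGAACA. Each sequence is the 250 bases before the start, on the gene's strand, with the half-site in capitals. They are Sult1a1 (chr7:126676419-126676668, minus strand), Tsc22d3 at 1 of its 3 starts (chrX:140600523-140600772, minus strand) and Bcl6, a transcriptional repressor, at 1 of its 2 starts (chr16:23981284-23981533, minus strand).
Sult1a1: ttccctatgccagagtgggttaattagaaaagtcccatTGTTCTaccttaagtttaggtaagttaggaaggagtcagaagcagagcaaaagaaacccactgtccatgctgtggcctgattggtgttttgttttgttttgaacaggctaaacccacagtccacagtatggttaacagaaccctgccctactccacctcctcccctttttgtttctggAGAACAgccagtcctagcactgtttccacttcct
Tsc22d3: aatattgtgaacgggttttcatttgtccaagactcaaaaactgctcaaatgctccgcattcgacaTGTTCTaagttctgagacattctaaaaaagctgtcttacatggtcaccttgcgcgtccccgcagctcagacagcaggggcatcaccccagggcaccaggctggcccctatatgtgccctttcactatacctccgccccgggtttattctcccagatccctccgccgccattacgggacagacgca
Bcl6: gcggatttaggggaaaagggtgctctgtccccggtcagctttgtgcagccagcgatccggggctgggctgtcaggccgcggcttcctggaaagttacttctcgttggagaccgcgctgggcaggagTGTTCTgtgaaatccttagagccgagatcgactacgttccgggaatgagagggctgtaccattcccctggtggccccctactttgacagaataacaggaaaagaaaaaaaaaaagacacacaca
Sult1a1 holds 2 half-sites, Tsc22d3 and Bcl6 1 each. Their end differences were 0.37 ± 0.12, 0.26 ± 0.05 and 0.17 ± 0.04, and their within-group slopes 0.41, 0.19 and 0.09.

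The gene of the glucocorticoid receptor, Nr3c1, ran from 9.38 to 15.5 FPKM in the high end and from 12.2 to 15.5 in the low end, a difference of -0.11 ± 0.06. Nr3c2, the mineralocorticoid receptor, which binds corticosterone with higher affinity, differed by 0.01 ± 0.05. Hsd11b1, which regenerates active hormone inside cells, differed by 0.16 ± 0.09 with within-group slope 0.03. Among 14 measured genes of the receptor and CRF list, 9 were higher, 5 lower and 2 lower by 1.2-fold: Ucn and Crhbp, the urocortin peptide and the CRF-binding protein. Ucn ran from 0.499 to 221 FPKM in the high end and from 0.290 to 108 in the low end, a difference of -0.59 ± 0.79. Of 18 measured kinases, activators and substrates of the SGK family, 9 were higher and 9 lower, none by 1.2-fold. Sgk3, a paralog, differed by only 0.13 ± 0.05 but had a positive slope in all 6 groups.

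Other lists also differed between the ends. Over all genes compared, 51.4% were higher in the high end and 54.6% had a positive within-group slope. Of 18 myelin genes, 17 were higher in the high end (median 0.17), but within groups the median slope was -0.01 and 6 of 18 were positive. Mbp, the myelin basic protein, ran from 3426 to 5269 FPKM in the high end and from 3343 to 4193 in the low end, a difference of 0.15 ± 0.06. The level of the myelin list ran from 7.2 to 7.81 in the high end and from 7.18 to 7.48 in the low end. Conditioning cocaine, all of it in the high end, had the highest group level, 7.61 ± 0.12 (SD, n = 6), and conditioning saline was next with 7.49 ± 0.13 (SD, n = 6). Of 18 heat shock genes 16 were higher (median 0.16), with 4 positive within groups. Of 22 immediate early genes 16 were higher and 4 had a positive within-group slope; Fos ran from 15.8 to 26.4 FPKM in the high end and from 5.01 to 20.0 in the low end, a difference of 0.73 ± 0.18, with a within-group slope of -0.28.

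The clock and interferon lists were lower in the high end. Of 18 clock genes 13 were lower (median -0.11). Per3, a period gene, ran from 4.59 to 6.29 FPKM in the high end and from 5.09 to 8.07 in the low end, a difference of -0.29 ± 0.06, and its within-group slope was 0.05. Clock level was lowest in conditioning cocaine, 3.49 ± 0.05 (SD, n = 6), and highest among the injected groups in chronic saline, 3.65 ± 0.07 (SD, n = 6). Time of tissue collection is not in the labels, and its part in these differences was not tested. Of 15 interferon and class I and II genes 13 were lower (median -0.15), and 9 of the 15 had a positive within-group slope, a share near that of all genes.

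Nuclear genes of oxidative phosphorylation were higher at both levels. In the high end 28 of 29 were higher (median 0.13), beside 51.4% of all genes. Within groups 26 of 29 had a positive slope, beside 54.6%. After quantile normalization the end difference in their list level was 0.079, against 0.139 without it. Their transcripts are short, and the median end difference by transcript length was 0.027 in the tenth with the shortest and -0.0066 in the tenth with the longest. Of 20 dopamine neuron genes 17 were lower in the high end (median -0.056) and 19 had a positive slope within groups (median 0.61). Their list level spanned 4.42 to 6.14 in the high end and 4.47 to 6.04 in the low end, with a mean difference of -0.08, although its median was higher in the high end than in the low end. The direction of that difference turned with the libraries used: it was 0.26 in home cage libraries alone, 0.054 with group means removed, and between -0.17 and 0.0015 when 1 library was left out. The part of tissue composition, of transcript length and of library totals in the differences above was not tested.

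**Figure D3:**
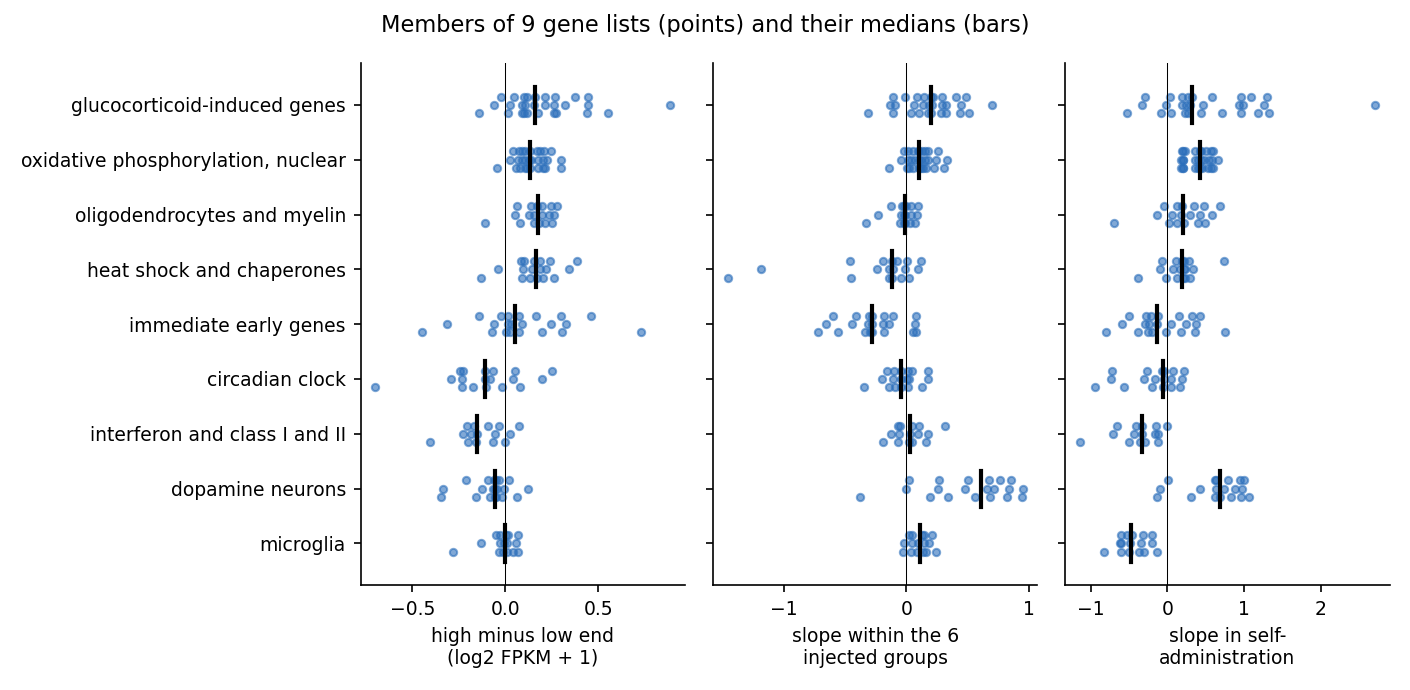
Members of 9 gene lists (points) and their medians (bars) as the high minus low difference in log2(FPKM + 1) (left), the slope on Sgk1 with group means of the injected libraries removed (middle) and the slope in self-administration libraries (right). The medians of the glucocorticoid and oxidative phosphorylation lists lie to the right of 0 in all 3 panels, while the median of the myelin list is 0.17 on the left and -0.01 in the middle.

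The 24 self-administration libraries took no part in the choice of the ends, so they allow a test of each gene. Gene lists were chosen with earlier results of these data known, so counts over lists remain descriptions here. Sgk1 in the self-administration libraries was 129 to 222 FPKM in the 15 cocaine and 157 to 262 in the 9 saline libraries. Cocaine library 10 stood lowest, at 129, and saline library 7 was next, at 157. Each gene was fitted in limma on log2(FPKM + 1) of Sgk1 with the treatment as a second term, and p-values were adjusted over 13129 genes by Benjamini and Hochberg. At an adjusted p under 0.05, 232 genes (1.77%) rose with Sgk1 and 179 (1.36%) fell. At an unadjusted p under 0.05 there were 2669. The test says that a gene varied with Sgk1 among these libraries, and Sgk1 was not manipulated.

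The genes higher by 1.2-fold at the Sgk1-high end were read against these shares. Of the 109, 95 were measured in self-administration, 73 of these had a positive slope, 20 (21.1%) rose and 0 fell. Of the 221 lower by 1.2-fold, 182 were measured, 147 had a negative slope, 13 (7.14%) fell and 0 rose. Of the 10 with the highest r, 7 rose: Arl4d, Ddit4, Arrdc2, Errfi1, Cdkn1a, Pdk4 and Rhou. The other 3, Nfkbia, Plekhf1 and Wnt3, had positive slopes that missed the threshold.

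Rhou had the smallest p, with a slope of 0.82 ± 0.09 (SE; limma adjusted p = 5.98e-05), and ran from 26.5 to 43.7 FPKM. Errfi1 ran from 15.6 to 29.1 FPKM with a slope of 0.93 ± 0.13 (adjusted p = 0.000341). Arl4d ran from 17.9 to 40.6 FPKM with a slope of 1.02 ± 0.17 (adjusted p = 0.00399). These 3 kept an adjusted p under 0.05 in each of 24 fits that left out 1 library. 

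Cdkn1a had the steepest slope of the list, 2.71 ± 0.58 (limma adjusted p = 0.0234), and ran from 9.31 to 113 FPKM with a median of 50.6. Even its lowest self-administration value, that of the library with the least Sgk1, lay above the low-end median of the injected libraries. The call was lost without self-administration cocaine library 10 (adjusted p = 0.059) or saline library 7 (0.0636).

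Mfsd2a rose with a slope of 1.09 ± 0.22 (limma adjusted p = 0.0145), a call that held in all 24 fits leaving out a library. Ddit4 (0.96 ± 0.24, adjusted p = 0.0324), Arrdc2 (1.19 ± 0.30, adjusted p = 0.0353) and Pdk4 (0.99 ± 0.27, adjusted p = 0.0456) rose too, but these calls were near the threshold: leaving out 1 library ended them in 7, 7 and 15 of 24 fits, with adjusted p up to 0.0873, 0.112 and 0.199. For Ddit4 the libraries were cocaine 3, 10 and 13 and saline 2, 3, 5 and 7, for Arrdc2 cocaine 3, 10 and 13 and saline 1, 3, 5 and 7, and for Pdk4 cocaine 3, 5 and 8 to 14 and saline 1, 3, 5, 6, 7 and 8.

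In all, 24 of 30 glucocorticoid genes had a positive slope, beside 51.7% of all genes tested, with a median of 0.31 beside 0.011 over all genes, and 6 rose: Cdkn1a, Arrdc2, Ddit4, Pdk4, Errfi1 and Mfsd2a. None fell. Nfkbia, the closest follower in the injected libraries, had a slope of 0.43 ± 0.16 and missed the threshold (limma adjusted p = 0.126). Fkbp5, near flat at the ends, had a slope of 0.71 ± 0.22 (adjusted p = 0.0788) and stood at 12.3 to 34.7 FPKM in these libraries, above all 24 end libraries. Tsc22d3 had 0.47 ± 0.16 (adjusted p = 0.0949), Sult1a1 1.3 ± 0.47 (adjusted p = 0.12) and Per1 -0.29 ± 0.22 (adjusted p = 0.478). Sgk3 rose, with 1.57 ± 0.36 (adjusted p = 0.0278), a call lost without cocaine library 10 (0.0732), cocaine library 13 (0.0509) or saline library 7 (0.0667).

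**Figure D4:**
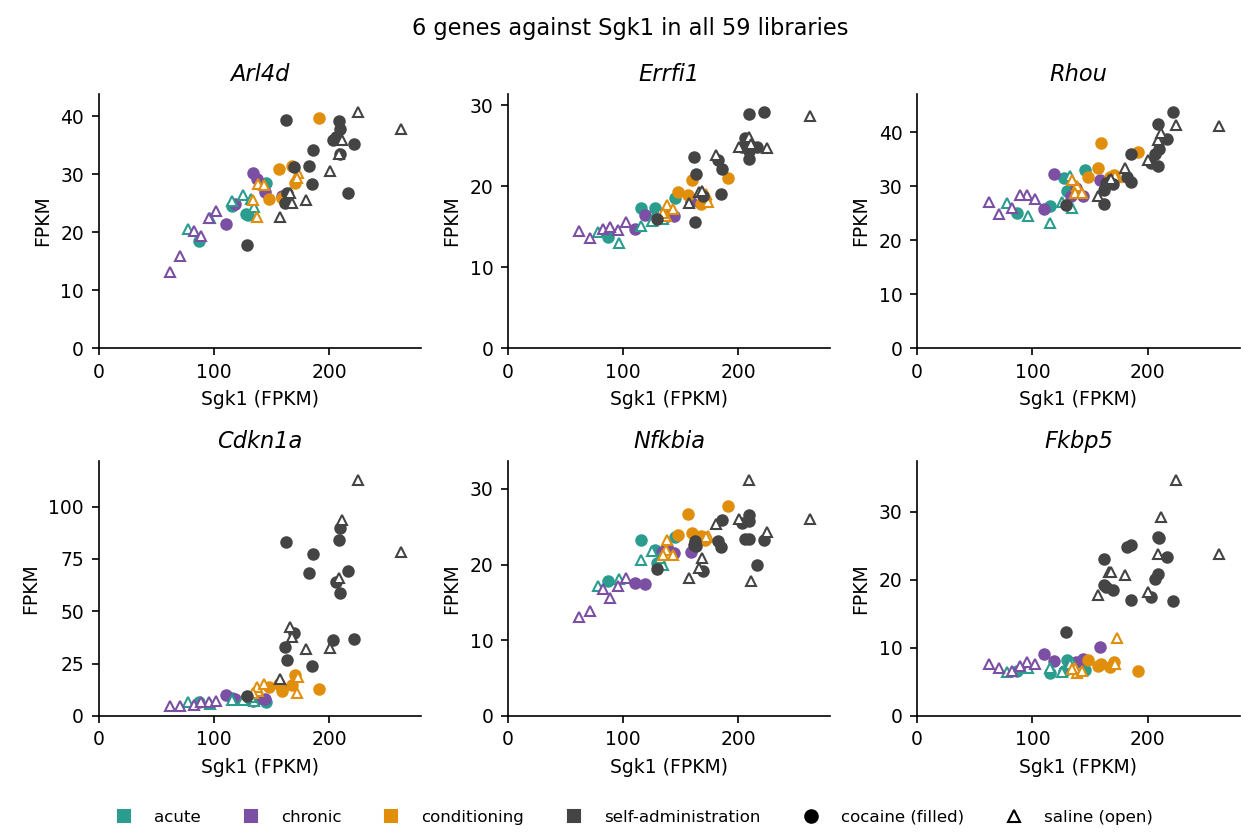
FPKM of 6 genes (vertical axes) against Sgk1 FPKM (horizontal axes) in all 59 libraries, coloured by paradigm, filled for cocaine and open for saline. Arl4d and Errfi1 climb with Sgk1 in the injected libraries and in the dark self-administration points, while Cdkn1a and Fkbp5 stand at higher levels in self-administration, 9.31 to 113 and 12.3 to 34.7 FPKM.

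In all, 20 genes were both higher at the ends by 1.2-fold and rose in self-administration. Besides those named they were Pvalb, Spp1, Tnfrsf12a, Kcng4, Gm765, Kctd9, Pla2g3, Emilin2, Htra1, Nefl, Kcna1 and Cdr2. Of the 20, 8 had a positive slope in all 6 injected groups, beside 3.05% of all genes compared. They were Cdkn1a, Arrdc2, Arl4d, Ddit4, Pdk4, Errfi1, Rhou and Pla2g3, a secreted phospholipase. The 20 were chosen in part on their end difference in the same injected libraries. Positive slopes there follow in part from that choice, and the count of 8 is a description. Pvalb, the calcium buffer of fast-spiking neurons, differed by 0.49 ± 0.22 between the ends and had a self-administration slope of 1.87 ± 0.50 (limma adjusted p = 0.0454), and Nefl, the light neurofilament, had 0.27 ± 0.20 and 1.39 ± 0.38 (adjusted p = 0.0471). Both were picked out after their values were seen. Both had end differences with wide errors and r under 0.3 to Sgk1 over the injected libraries, 0.26 and 0.12.

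The 13 that were lower and fell included Rgs9, Celf5, Gpc3, Pipox, Per3, Slc8a2, Cpne5, Camk2a, C2cd4c, Baiap3, Barhl2 and Tspan18. Camk2a, a calcium-dependent kinase of excitatory synapses also picked out after its value was seen, had a self-administration slope of -1.01 ± 0.28 (limma adjusted p = 0.0491), and Per3 had -0.57 ± 0.12 (adjusted p = 0.0154). None of the 13 had a negative slope in all 6 injected groups. Of all genes compared only 2.03% had one, so this says little about the 13. None of the 10 with the lowest r fell: Cd248 and Hic1 averaged under 1 FPKM there and were not tested, and the nearest, Dbp, had -0.94 ± 0.29 (adjusted p = 0.0773).

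**Figure D5:**
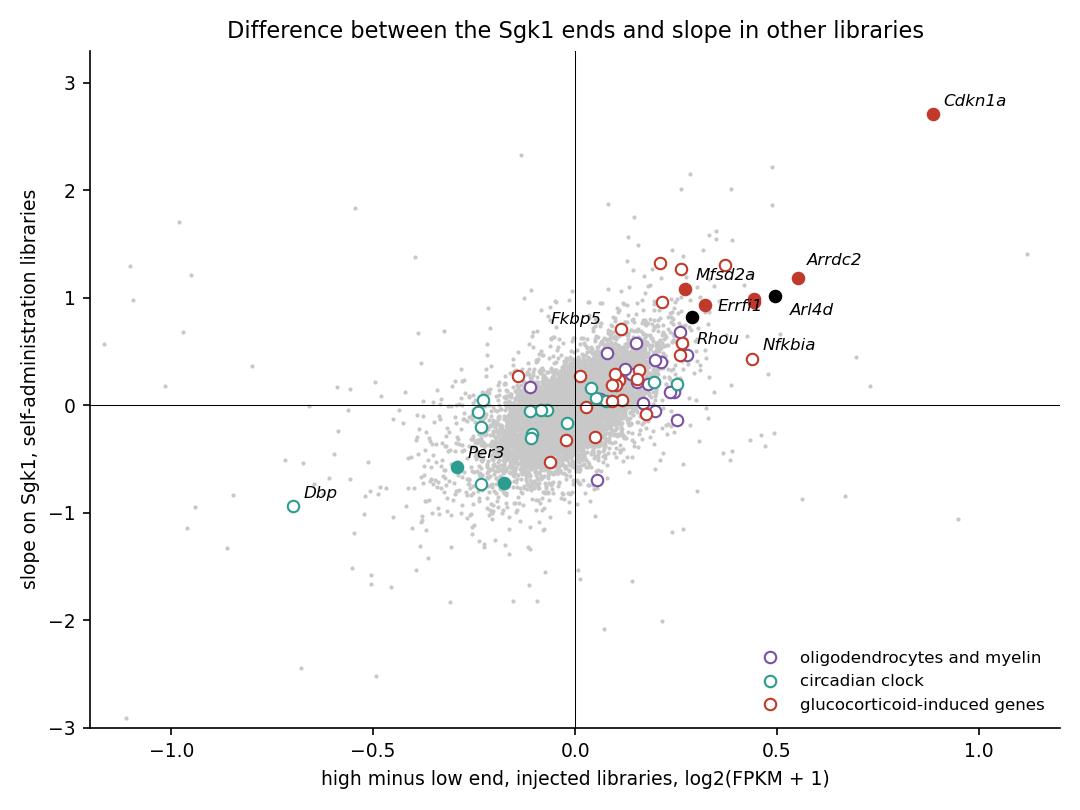
Slope on Sgk1 in the 24 self-administration libraries (vertical axis) against the high minus low difference in the injected libraries (horizontal axis, log2(FPKM + 1)) for 12906 genes measured in both, with 3 gene lists in colour, filled where the adjusted p was under 0.05; Arl4d and Rhou are black and 10 genes lie outside the axes. The filled glucocorticoid genes all lie at upper right, with Cdkn1a the farthest out, and Nfkbia is open.

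The genes that rose with the smallest p were Rhou, Htra1, a secreted serine protease, Carhsp1, an RNA-binding protein, Pdlim1, a cytoskeletal adaptor, and Errfi1. Those that fell with the smallest p were Ccdc39 and Dnah1, of motile cilia, Unc5d, a netrin receptor, Unc13b, a synaptic vesicle priming factor, and Tenm2, an adhesion protein. In the injected libraries these genes divided. Carhsp1 differed between the ends by 0.17 ± 0.05, Htra1 by 0.27 ± 0.05 and Pdlim1 by 0.07 ± 0.07. Their within-group slopes were 0.12, 0.02 and -0.09. Unc5d differed by -0.18 ± 0.07 and Tenm2 by -0.21 ± 0.06, with slopes of -0.20 and 0.10. Ccdc39 and Unc13b differed by 0.005 ± 0.07 and 0.02 ± 0.03, with slopes of -0.04 and 0.08. Dnah1 was not compared there. In self-administration, of 29 oxidative phosphorylation genes all 29 had a positive slope (median 0.43) and 3 rose. Of 18 myelin genes 15 were positive and 0 rose, and of 16 microglial genes 0 were positive and 0 fell. Of 19 dopamine neuron genes 17 were positive and 0 rose. Over all genes tested, 51.7% were positive, 1.77% rose and 1.36% fell. In lists this short, counts of 0 rising or falling are near those shares. By transcript length, median slopes ran from 0.11 in the tenth with the shortest to -0.14 in the tenth with the longest.

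Sums of FPKM moved with Sgk1 here as well, with a median of 429086 in the 12 libraries with the most Sgk1 and 417723 in the 12 with the least. After quantile normalization, which gives all libraries the same distribution, 18 genes rose and 0 fell, 2 of them on the glucocorticoid list. Arl4d, Errfi1, Rhou and Mfsd2a were still called, while Cdkn1a, Ddit4, Arrdc2 and Pdk4 were not. Without self-administration saline library 7, which had the lowest sum, 43 genes rose and 19 fell. How far the larger counts rest on the library totals was not tested.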

How the data were processed

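Per the labels' protocols, RNeasy columns gave the total RNA and a TruSeq RNA kit the libraries. Strand is not stated. The authors deposited FPKM by gene symbol for 59 libraries, and Bowtie, Cuffnorm and the build mm10 are named in the submitters' processing notes. Their versions and the annotation were not given in the sources used here. The read depth is unknown, so no counting interval is given. FPKM depends on the library total and on fragment and GC bias, which can shift many genes together. Reads of overlapping genes or near-identical copies could be split between them.

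All 59 columns were mapped to groups by name and are called by group and column number. No pair of columns was identical. The scale used is log2(FPKM + 1). Genes averaging 1 FPKM or more in the set of libraries compared were kept: 13172 of 24346 symbols in the injected and 13129 in the self-administration libraries. Ends were described without a test. Slopes in self-administration came from limma 3.58.1 in R 4.3.3 with trend and robust options, two-sided, checked on simulated data. Named genes were the 10 with the highest and the 10 with the lowest Pearson r to Sgk1 among those past 1.2-fold, glucocorticoid list members past 1.2-fold, 5 per direction with the smallest p in self-administration, 1 to 4 members with the widest end difference for each other list described, and Nr3c1, Nr3c2, Hsd11b1, Th, Slc6a3, Mbp, Cldn5, Fos and Sgk3. Other glucocorticoid list members and the genes that carried over to self-administration were named after their values were seen. There are 22 lists. Members and lists were chosen with earlier results of these data known. Gene positions are those of GENCODE M21 for GRCm38, matched by symbol, and the authors may have used other gene limits. The transcript length of 96.4% of genes was found in the same annotation.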

Additional observations from a re-analysis of the deposited data

Results flagged for a closer look

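In 56 checks of 1 library against the rest of its group, 2 libraries lay apart by Dixon's gap over range at the 95% level, and chance gives about 1 in 20. Among the 6 conditioning saline libraries, library 0 had a glucocorticoid list level of 3.97 (mean log2(FPKM + 1) over the members), while the other 5 lay between 3.68 and 3.79. It had the second rank of Sgk1 among the injected libraries, 173 FPKM, and also the highest microglial list level of the high end, 4.24. Without it the end difference in the glucocorticoid list level was 0.187, against 0.207 with it.

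Arrdc2 was at 19.2 FPKM in chronic cocaine library 3, while the other 5 libraries of that group lay between 15.1 and 16.3. This library had the most Sgk1 of its group, 159 FPKM, and was 1 of its 2 in the high end. What set either library apart was not tested.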

How the results depend on the processing

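No paired analysis was possible because the column numbers count from 0 and are not tied to the replicate numbers of the labels. With the main settings 40 genes were higher and 94 lower by 1.3-fold and 1 did not overlap between the ends. Higher genes numbered 61 with 8 libraries per end, 24 with 17 per end, 77 with a pseudocount of 0.1, 13 with group means removed and 76 in saline libraries alone. Lower genes numbered 58 with 17 per end, 204 with the pseudocount of 0.1, 30 with group means removed and 61 in saline alone. Genes that did not overlap numbered 39 with 8 per end, 0 with 17, 0 with group means removed, 12 without chronic cocaine, 78 in saline alone (6 per end) and 10 in the 23 home cage libraries (8 per end, an alternative chosen after seeing the data). Leaving out 1 library gave 32 to 47 higher, 76 to 114 lower and 1 to 5 not overlapping, the last highest without acute cocaine library 1. Conditioning cocaine and chronic saline lie wholly in 1 end and add 0 to a difference once group means are removed, so that setting limits the difference by construction. With group means removed the end difference in list level was 0.023 for glucocorticoid-induced genes (0.207 as reported), -0.0146 for the clock list (-0.11) and -0.00118 for myelin (0.16). In home cage libraries alone the clock list gave -0.0446 and myelin -0.00808, while the glucocorticoid list gave 0.197. After quantile normalization the glucocorticoid list gave 0.210, myelin 0.108 and oxidative phosphorylation 0.079 (0.139 as reported).

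In self-administration 232 genes rose, 179 fell and 6 rising genes were on the glucocorticoid list. In the same order the counts were 72, 47 and 5 without the treatment term, 18, 0 and 2 after quantile normalization, 500, 420 and 10 with library quality weights, 361, 274 and 5 on ranks of Sgk1, 4, 0 and 0 in cocaine libraries alone, 18, 44 and 1 in saline alone, 19, 17 and 1 for the 12 highest against the 12 lowest, 175, 116 and 9 with the myelin level as a term, and 165, 154 and 3 with the dopamine neuron level. Chosen after seeing the data, both levels as terms gave 53, 33 and 7, and the first principal component as a term gave 638, 462 and 8. Cocaine alone, saline alone and the 12 against 12 use fewer libraries or less of the Sgk1 range. Leaving out 1 library gave 43 to 337 rising, 19 to 277 falling and 2 to 7 on the list. Rising genes fell below 232 by over 1.5 times without cocaine library 0 (107), 3 (110), 4 (128) or 13 (61) or saline library 1 (120), 2 (88), 3 (58), 5 (129) or 7 (43). Falling genes numbered 64, 62, 77 and 34 without those cocaine libraries, 107 without cocaine 12, 118 without cocaine 14, 277 without cocaine 10, and 74, 65, 28, 89 and 19 without those saline libraries. The list count was 2 without cocaine 10 or saline 7 and 3 without cocaine 3 or 13 or saline 3 or 5. Slopes near 0 changed sign: Gas1 (-0.11) was 0.0163 after quantile normalization, 0.0608 with quality weights and 0.0222 without cocaine library 6, the top of a range from -0.18 when 1 library is left out. Sox2 (0.07) was -0.0127 after quantile normalization, -0.36 in cocaine alone, -0.0198 with the principal component, -0.0218 without saline library 0 and -0.00939 without saline library 7, in a range up to 0.41 when 1 library is left out. Apart from what the group means and the number of libraries fix, the cause was not tested.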

Other observations

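Astrocyte genes divided at the ends. Gfap, the intermediate filament of astrocytes, ran from 8.49 to 56.0 FPKM in the high end (median 20.5) and from 16.6 to 107 in the low end (median 29.9), and Sox9, a factor of astrocytes and their progenitors, ran from 4.39 to 5.35 against 4.95 to 7.21 FPKM, with a negative slope on Sgk1 in all 6 injected groups. S100b, a calcium-binding protein of astrocytes and oligodendrocytes, ran the other way, 143 to 256 against 132 to 234 FPKM, and its self-administration slope was 0.82 ± 0.21 (limma adjusted p = 0.0357). Of 14 astrocyte genes 9 were higher and 5 lower at the high end, and 4 of 14 had a positive within-group slope. Over all genes compared, 51.4% were higher and 54.6% had a positive within-group slope.

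Slc2a1, the glucose transporter of brain endothelium, ran from 66.0 to 84.4 FPKM in the high end and from 58.7 to 75.8 in the low end, with a within-group slope of 0.23. Cldn5, a tight junction protein of the same cells, differed by 0.05 ± 0.12 and had a negative slope in all 6 injected groups (-0.51 with group means removed). Of 17 genes on the endothelial and pericyte list, which also holds the glial proteoglycan Cspg5, 11 were higher at the high end. A positive within-group slope was found for 5 of the 17. The shares over all genes compared were 51.4% and 54.6%.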
